A study of Mus musculus with 54 samples.

Results

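The hearts of 3 Mrps12+/+ (wild-type control) and 3 Mrps12ha/ha (homozygous hyper-accurate) mice were compared by RNA sequencing, with all 16057 genes that reached a mean of 10 normalised counts over the 9 hearts of the study, of 54356 genes listed. The mice were male C57BL/6 animals of 20 weeks that ate a high-fat diet (HFD) with 42% of its energy as fat, and the homozygotes had litter-mate controls of the same age. Both genotypes shared strain, diet and age and differed in the Mrps12 allele, which in the mutants changes a lysine of the MRPS12 protein to threonine (K71T) in every cell of the body. Another 3 hearts on the same diet carried the error-prone allele, Mrps12ep/ep (K72I), and are used where a value is set beside them. RNA came from total hearts, so that atria, ventricles, vessels, surface cells and blood were measured together. Each mouse gave 3 technical libraries and each heart has 1 column of values, read here as the pool of its libraries.

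MRPS12 sits at the decoding centre of the small subunit of the mitochondrial ribosome, where codon and tRNA are matched. That ribosome makes only proteins of oxidative phosphorylation (OXPHOS), the chain that turns fuel into ATP, and the heart depends on it for contraction. The protein's bacterial relative is the classic site of mutations that make translation more or less accurate. Nuclear genes supply all other mitochondrial proteins, and only nuclear genes were measured here, since transcripts of the mitochondrial chromosome are not among the listed genes.

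The coding bases around the mutated residue are given to show where the allele lies. Mrps12 lies on chromosome 7 of GRCm38 (28739641 to 28741820, minus strand), and codons 62 to 81 are in the last of its 3 exons, at chr7:28740046-28740105. Capitals mark codon 71, which the hyper-accurate allele changes, and codon 72, which the error-prone allele changes, in the reference sequence of GENCODE vM21:
Mrps12: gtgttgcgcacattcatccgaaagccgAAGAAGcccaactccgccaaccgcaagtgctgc
Both codons read AAG in the reference. The deposited values are sums per gene and do not show which allele a mouse carried. Mrps12 itself was measured at 1156, 1052 and 1028 normalised counts in the control hearts and at 1333, 1084 and 1397 in the Mrps12ha/ha hearts. The groups overlapped. Limma put the difference at 0.23 on the log2 scale, with a standard error of 0.13 and an adjusted p of 0.324. Here and below a fold change is a difference of log2(normalised count + 1), Mrps12ha/ha minus Mrps12+/+, and an adjusted p is limma's, corrected by the Benjamini-Hochberg method over all 16057 genes.

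The depth of the hearts differed. Control hearts held 37101163 to 51480263 reads on genes and Mrps12ha/ha hearts 1, 2 and 3 held 17916524, 11202866 and 47813321, so that 1 read was worth up to 3.02 normalised counts, in heart 2. Across genes Mrps12ha/ha heart 2 was nearer to control heart 1 (Pearson's r of 0.976) than to Mrps12ha/ha hearts 1 and 3 (0.938 and 0.947), which were close to each other (0.975). All 12 cardiomyocyte markers were detected, with summed levels of 3073428 to 3386190 in the controls and 3661543 to 4325555 in the mutants. Of the 12, 8 had a higher and 4 a lower estimate in the mutants. Myh6, the most abundant, weighs most in these sums, with a mean of 1121373 in the controls and 1720690 in the mutants. Markers of other cells differed between hearts: the 8 atrial genes summed to 32138, 255570 and 194175 in the controls and to 14768, 26254 and 23068 in the mutants, and the 9 mesothelial genes to 985.2 to 2102 against 352.0 to 572.4. The 15 hepatocyte genes summed to 6585 to 20467 in the controls and to 3286 to 20461 in the mutants, highest there in heart 2. The 9 erythroid genes, globins among them, summed to 93392 to 238023 in the controls and to 467978, 201552 and 1424350 in the mutants. The part of these tissues in the comparisons was not tested. In bulk tissue, fewer cells of a type and less RNA in each cell cannot be told apart.

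Few single genes passed the threshold. At an adjusted p of 0.05, 5 genes were called, all lower in Mrps12ha/ha hearts, which is 0.0311% of those tested, while 3168 genes (19.7%) had an unadjusted p under 0.05. The 3 mutant hearts all lay above the 3 control hearts in 1788 genes (11.1%) and all below in 1613 (10.0%). These shares are the background for every count of non-overlapping genes below, and no exact permutation test of 3 hearts against 3 can give a p below 0.1. Without Mrps12ha/ha heart 2 the count of calls was 4330, of which 1957 (12.2%) were higher and 2373 (14.8%) lower. The count was 4 without Mrps12ha/ha heart 1 and 4 without heart 3. Heart 2 is the mutant heart least like the other mutants, and leaving it out by itself narrows the spread. Adjusted p-values and counts given below without heart 2 thus rest on mutant hearts 1 and 3 and are no separate support. The shares of 12.2% higher and 14.8% lower are the background for every count of calls without heart 2. When each heart was weighted by its own scatter, heart 2 had the lowest weight of the 9, 0.167, and 5573 genes were called.

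**Figure D1:**
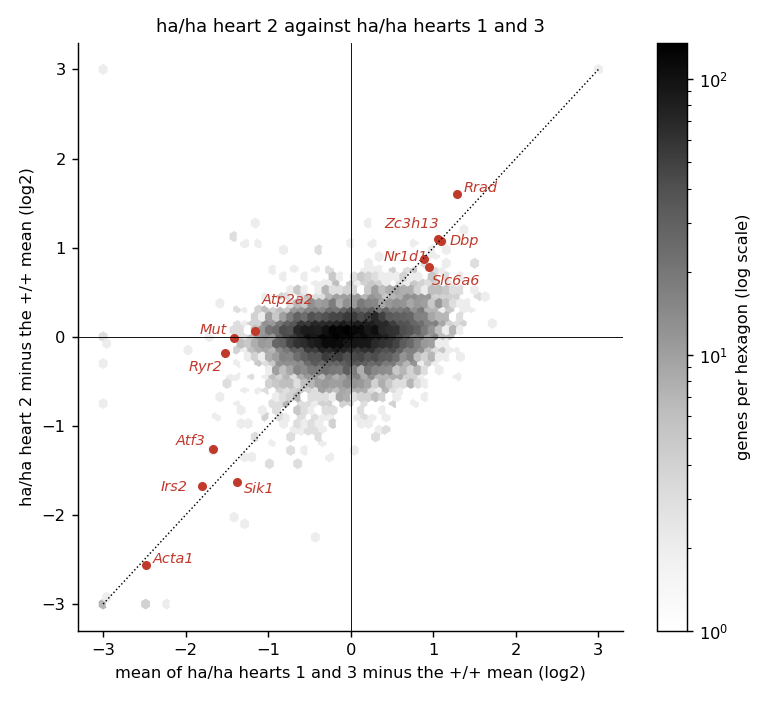
Difference from the mean of the 3 control hearts, in log2(normalised count + 1), for genes with a mean of at least 100 normalised counts over the 3 control and 3 Mrps12ha/ha hearts, with the mean of Mrps12ha/ha hearts 1 and 3 on the x axis, heart 2 on the y axis, the shade giving the number of genes per hexagon, equality dotted and values beyond 3 drawn at 3. Most genes lie in a flat band near 0 for heart 2, while Irs2, Sik1, Atf3, Acta1, Rrad and Nr1d1 lie near the line of equality.

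Some genes differed from the controls in all 3 mutant hearts, and a larger number in hearts 1 and 3 only. Among 11869 genes with a mean of at least 100 normalised counts, the differences from the control mean correlated at 0.83 between hearts 1 and 3, and at 0.29 between heart 2 and the mean of hearts 1 and 3, where all points share the control hearts. Of 2253 genes at least 0.5 lower on the log2 scale in the mean of hearts 1 and 3, 291 were that much lower in heart 2 as well and 1530 were within 0.25 of the control mean. Of 1845 genes at least 0.5 higher, 208 were that much higher in heart 2 and 1133 within 0.25. When all hearts were thinned to the depth of heart 2, the count of calls was 7.

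Irs2 was the only called gene that codes for a protein. It encodes an adaptor that the insulin and IGF1 receptors phosphorylate and that passes their signal to PI3-kinase and AKT. Irs2 (ENSMUSG00000038894.7, chromosome 8 of GRCm38, 10984681 to 11008458, minus strand) was at 974, 934 and 1260 normalised counts in the controls and at 260, 326 and 347 in Mrps12ha/ha hearts. The groups were far apart, and all 3 mutant hearts, heart 2 included, were near one another. The mean fell 3.4-fold, which limma estimated at -1.76 on the log2 scale with a standard error of 0.20 (adjusted p = 0.0291). The adjusted p ran from 0.00296 to 0.134 over the alternatives, and leaving out any 1 control heart, or Mrps12ha/ha heart 1 or 3, took it above 0.05. The Mrps12ep/ep hearts had 672, 970 and 611, which put the direct difference between the mutants at -1.25 (adjusted p = 0.157).

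The 250 bases before the RefSeq start of Irs2 are shown because Irs2 is the main call, at chr8:11008930-11009179 of GRCm38.p6 on the minus strand, with an E-box (CACGTG, the site of the clock factors CLOCK and ARNTL among others) in capitals:
Irs2: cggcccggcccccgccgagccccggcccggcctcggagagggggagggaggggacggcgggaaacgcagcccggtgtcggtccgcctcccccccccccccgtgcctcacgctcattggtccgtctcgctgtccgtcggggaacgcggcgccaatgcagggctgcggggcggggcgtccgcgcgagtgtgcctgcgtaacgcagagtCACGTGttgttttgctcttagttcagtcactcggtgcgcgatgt
An E-box, read on both strands, is found in 6.02% of 32851 promoter windows of this length. The letters of a cAMP response element (TGACGTCA, 1.55% of windows) and of a FoxO site (TGTTTAC, 3.17%) are not in this window. Other letters that FoxO factors can bind were not looked for, so that the window is not shown to lack such a site.

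Other genes of insulin signalling were not called. Of 43 tested members of the list, 1 was called (Irs2), 31 had a lower and 12 a higher estimate, 7 lay below and 4 above every control heart, and the median log2 fold change was -0.18, against -0.02 over all genes. Tbc1d4, whose protein AS160 holds GLUT4 vesicles back until AKT phosphorylates it, was at 3413, 3953 and 4012 in the controls and 2060, 3156 and 2187 in the mutants (-0.64, adjusted p = 0.191 from limma). Mtor, the kinase of the growth pathway, was at 2843, 2391 and 2604 against 1012, 1912 and 1806 (-0.78, adjusted p = 0.206). In both genes every mutant heart lay below every control heart. The other adaptor, Irs1, overlapped at 894 to 1311 against 742 to 982. Without Mrps12ha/ha heart 2, 3 genes of the list were called higher and 11 lower, Tbc1d4 (adjusted p = 0.00469 from limma) and Mtor (0.0202) among the latter. Over all genes 12.2% were called higher and 14.8% lower in that fit.

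The insulin receptor Insr and the glucose transporter GLUT4 gene Slc2a4 showed the split between hearts. Insr was at 4760 to 5208 in the controls and at 3468, 5524 and 3500 in the mutants, and Slc2a4 at 12710 to 14154 against 8734, 13784 and 8956. For each of them hearts 1 and 3 were low and heart 2 was within the control range or above it. Without heart 2, Slc2a4 had an adjusted p of 0.0156 and Insr of 0.0189 from limma.

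The other 4 calls were processed pseudogenes, intron-less copies of coding genes, and all had 0 reads in every Mrps12ha/ha heart. Gm15387 (chromosome 15, 74093686 to 74094333) was at 498, 679 and 558 normalised counts in the controls, Ptges3-ps (chromosome 6, 85843980 to 85844459) at 159, 118 and 142, Gm6206 (chromosome X, 103163110 to 103165407) at 153, 156 and 65.4, and Gm6361 (chromosome 15, 31446383 to 31446817) at 68.9, 50.2 and 51.6. Their adjusted p-values were 1.46e-07, 2.38e-05, 3.41e-04 and 0.0291 from limma. The call of Gm6361 was lost without any 1 control heart, without Mrps12ha/ha heart 1 or 3, with the replicate number as a block and with a pseudocount of 0.1, with an adjusted p of up to 0.253. It passed the filter on low values through the control hearts alone. Gm6361 also had 0 reads in all Mrps12ep/ep hearts, where the others had 314 to 413, 102 to 191 and 55.5 to 111. Heart 2 was thus like the other mutant hearts at these 4 genes, although 0 reads in its library allow up to 9.06 normalised counts, the value of 3 reads.

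Each of the 4 is nearly or wholly identical to the coding part of an expressed gene, so that short reads from the pseudogene and from that gene can hardly be separated and the 4 values are uncertain. Gm15387 matches Hmgb1, a chromatin protein, at 647 of 648 bases. Ptges3-ps matches Ptges3, a co-chaperone of HSP90, at 480 of 480 bases. Gm6206 matches Cop1, a ubiquitin ligase, at 2195 of 2202 aligned positions, and Gm6361 matches Ube2v2, a ubiquitin-conjugating factor, at 435 of 435. The only difference between Gm15387 and Hmgb1 is A21G (Hmgb1 base, position counted from the first base of the start codon, Gm15387 base), shown in capitals in the first 50 bases of the match:
Hmgb1: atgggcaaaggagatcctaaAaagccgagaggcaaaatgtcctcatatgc
Gm15387: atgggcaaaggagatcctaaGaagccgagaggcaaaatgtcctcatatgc

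The coding copies did not share the pattern of the pseudogenes. Hmgb1 was at 6960, 7026 and 7041 in the controls and 6284, 7680 and 6048 in Mrps12ha/ha hearts. Ptges3 was at 4390, 3452 and 3923 against 3339, 4050 and 3779, and Ube2v2 at 834, 670 and 810 against 630, 960 and 642. All 3 overlapped between genotypes. Cop1 was at 3471, 2963 and 3475 against 1436, 3984 and 1717, low in hearts 1 and 3 and above the controls in heart 2. In the control hearts the pseudogenes held 7.62% (Gm15387), 3.44% (Ptges3-ps), 3.64% (Gm6206) and 6.87% (Gm6361) of the sum of each pseudogene and its copies of at least 99% identity. These 4 sums overlapped between the genotypes, for example 7457, 7724 and 7603 against 6284, 7680 and 6048 for Gm15387 and its copies.

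**Figure D2:**
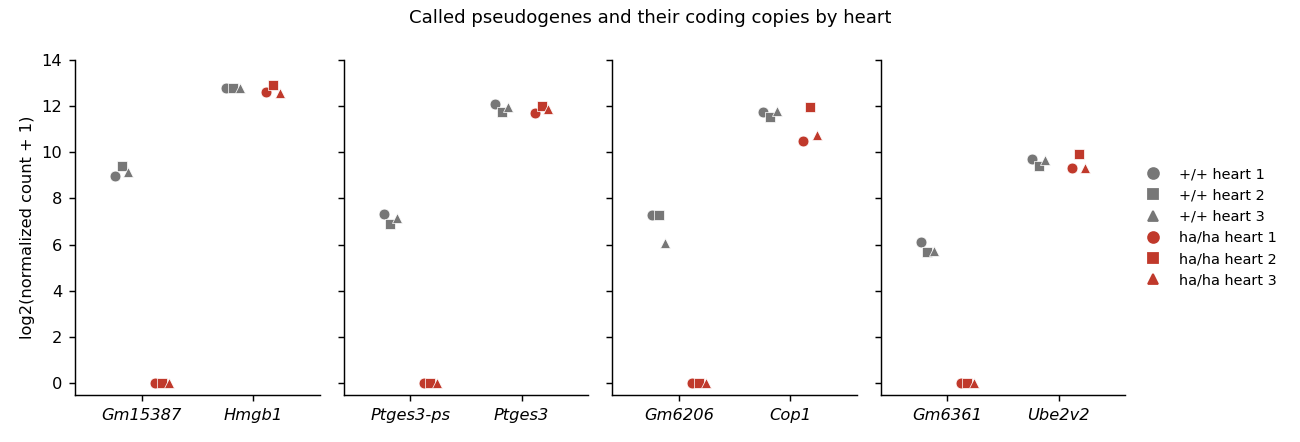
Normalised counts, on a log2(normalised count + 1) axis, of the 4 called pseudogenes and the coding gene that each copies, with a point per heart, controls in grey and Mrps12ha/ha in red. Every pseudogene is at 0 in all 3 Mrps12ha/ha hearts, while each coding copy is measured in all 6 hearts.

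Several genes that missed the threshold were higher in all 3 Mrps12ha/ha hearts. Rrad, a small GTPase that binds the beta subunit of L-type calcium channels and restrains them, was at 2057, 1960 and 1326 normalised counts in the controls and 4201, 5327 and 4314 in the mutants (1.39, adjusted p = 0.0558 from limma). Zc3h13, a subunit of the complex that writes m6A on RNA, was at 1030, 956 and 1062 against 1749, 2180 and 2537 (1.07, adjusted p = 0.0558). The taurine transporter gene Slc6a6 was at 4920, 4144 and 3920 against 9114, 7910 and 6971 (0.88, adjusted p = 0.0935). In these 3 genes every mutant heart lay above every control heart and heart 2 was no exception. The Mrps12ep/ep hearts had 2418 to 2973 for Rrad, 973 to 1082 for Zc3h13 and 4815 to 5294 for Slc6a6.

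Serf1, Evl (a regulator of actin filaments), Col11a2 (a fibrillar collagen chain) and Adamts7 (a matrix protease) were higher in the same way. Serf1 was the tightest, with 173, 148 and 166 against 309, 308 and 315. Col11a2 was at 217, 231 and 228 against 893, 444 and 1104, the largest fold among the 12 genes with the smallest p in this direction, at 1.75 (adjusted p = 0.113 from limma). Its level in heart 2 was above the controls and below the other mutants. Without heart 2 the adjusted p from limma of these 7 genes ran from 0.000387 for Col11a2 to 0.00507 for Slc6a6. The list of collagens and matrix genes did not go with Col11a2 and Adamts7. Of 41 tested 28 had a lower and 13 a higher estimate, and the median was -0.13. In that list 3 genes (7.32%) lay above and 8 (19.5%) below every control heart, and 0 were called by limma.

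Other genes that missed the threshold were lower in all 3 mutant hearts. Sik1, a salt-inducible kinase that restrains transcription driven by CREB coactivators and is itself induced by cAMP, was at 4370, 4239 and 4988 in the controls and 1338, 1459 and 2262 in the mutants (-1.46, adjusted p = 0.0656 from limma). Nuak1, a kinase of the AMPK family, was at 2147, 1974 and 1971 against 1012, 1392 and 1151 (-0.79, adjusted p = 0.113). Hdac9, a class IIa histone deacetylase that represses MEF2, was at 827, 815 and 720 against 434, 550 and 369 (-0.82, adjusted p = 0.144). The groups did not overlap in any of the 3, and in Nuak1 and Hdac9 heart 2 was the mutant heart nearest to the controls. Without heart 2 the adjusted p was 0.00494 for Sik1, 0.00242 for Nuak1 and 0.00305 for Hdac9 from limma.

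**Figure D3:**
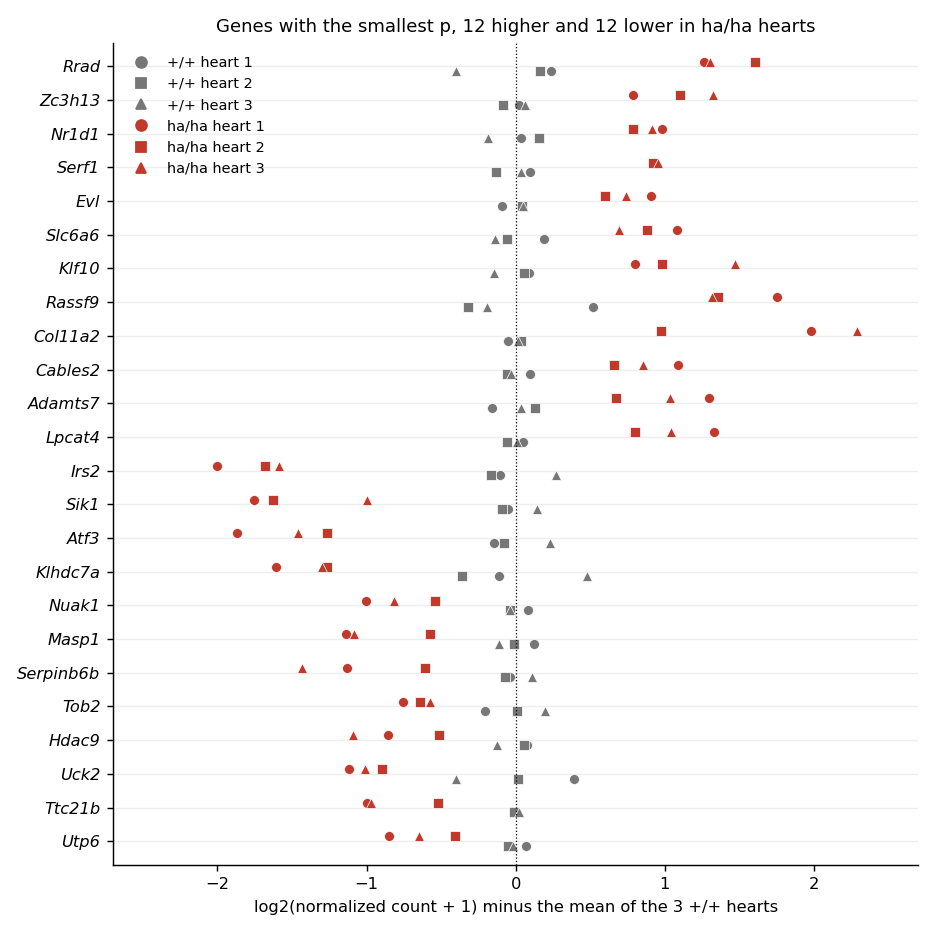
The 12 genes with the smallest p in each direction among named genes with a mean of at least 100 normalised counts and no overlap between genotypes, each heart as a point at its difference from the control mean in log2(normalised count + 1). Irs2 is the only one of the 24 with an adjusted p under 0.05, and heart 2 (squares) lies close to another mutant heart for Serf1, Irs2 and Sik1.

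Several core clock genes separated in all 3 mutant hearts, heart 2 included. In the clock, CLOCK or NPAS2 pairs with ARNTL to switch on the Per, Nr1d and Dbp genes, and NR1D1 and NR1D2 in turn repress Arntl and Npas2. Nr1d1, also called Rev-erb alpha, was at 4551, 4936 and 3898 in the controls and 8764, 7653 and 8359 in the mutants (0.89, adjusted p = 0.0935 from limma). Dbp, an output factor that binds D-boxes, was at 1732, 2192 and 1735 against 5471, 3941 and 2945 (1.09, adjusted p = 0.159). Per2 was at 1215, 928 and 1371 against 1741, 1543 and 1899 (0.57, adjusted p = 0.208). All mutant hearts were above all controls in these 3 genes, and the Mrps12ep/ep hearts had 5115 to 6308, 1730 to 2301 and 972 to 1312.

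Per3 was at 595, 640 and 827 against 1771, 1021 and 1098 and Nr1d2 at 4062, 4391 and 4842 against 6211, 5587 and 5524, again without overlap. The activators lay the other way. Arntl was at 604, 525 and 406 in the controls and 263, 239 and 354 in the mutants (-0.84, adjusted p = 0.191 from limma). Npas2 was at 243, 279 and 176 against 86.5, 121 and 147 (-0.98, adjusted p = 0.213), and Clock at 1675, 1683 and 1582 against 1171, 1468 and 1138 (-0.40, adjusted p = 0.212). In each of them all 3 mutant hearts were below the lowest control. Per1 went against Per2 and Per3, at 4196, 5018 and 5864 against 3696, 3745 and 4354, with an overlap of the groups.

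Of 21 core clock genes, 0 were called by limma, 11 had an unadjusted p under 0.05, 5 lay above and 5 below every control heart, and the median was -0.06. The per-heart medians were 0.01, 0.10 and -0.11. Without heart 2, 4 were called higher and 2 lower, against 12.2% and 14.8% of all genes. Of 20 clock output genes 0 were called and 8 had an unadjusted p under 0.05, with 3 above, 3 below, a median of -0.24 and per-heart medians of -0.58, 0.04 and -0.23. The mice were kept in 12 h of light and 12 h of dark, and the hour at which each heart was taken is not given in the sources used here, so that the genotype and the hour cannot be told apart.

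**Figure D4:**
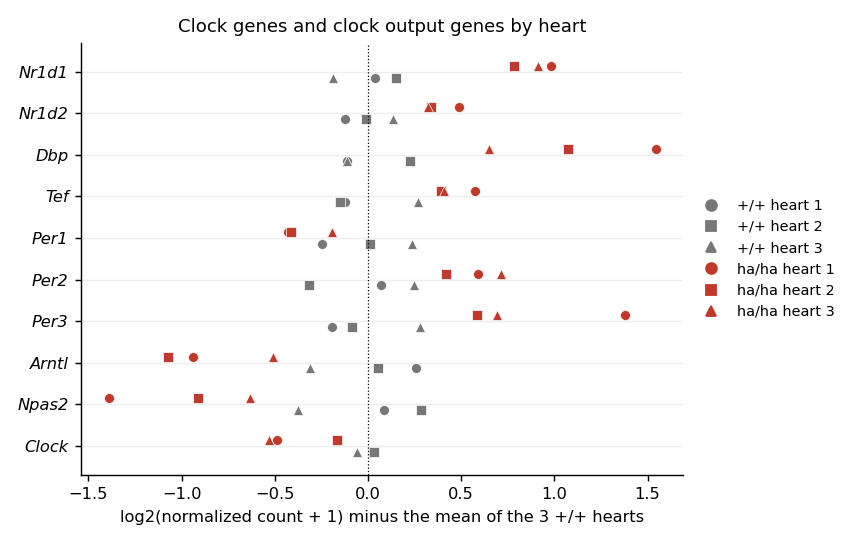
Clock and clock output genes by heart, each point the difference of a heart from the control mean in log2(normalised count + 1), controls in grey and Mrps12ha/ha in red. Nr1d1, Nr1d2, Dbp, Tef, Per2 and Per3 lie to the right of the controls in all 3 Mrps12ha/ha hearts and Arntl, Npas2 and Clock to the left, while Per1 overlaps.

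The promoter of Per3 is shown because its window holds 2 D-boxes. It is chr4:151044666-151044915 of GRCm38.p6, minus strand, the 250 bases before the RefSeq start, with TTATGTAA in capitals:
Per3: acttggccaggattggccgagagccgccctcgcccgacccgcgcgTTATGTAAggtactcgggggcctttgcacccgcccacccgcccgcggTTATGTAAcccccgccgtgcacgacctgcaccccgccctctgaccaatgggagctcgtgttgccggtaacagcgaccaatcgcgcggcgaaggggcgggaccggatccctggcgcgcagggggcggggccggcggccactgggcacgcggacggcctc
A D-box, read on both strands, is in 0.819% of all 32851 windows. Of 19 clock and stress genes looked up, 15 matched the promoter table, and Per3 alone of them had a D-box. E-boxes were in windows of Irs2, Tef, Per1, Cry1 and Bhlhe41. The windows of Nr1d1, Dbp and Arntl held neither motif. Only the 250 bases before each start were searched, so that sites elsewhere in these genes are not covered. Whether Dbp acts on Per3 in these hearts was not tested.

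Immediate early genes, which hormones and stretch induce within a short time, were mostly lower. Of 42 tested, 0 were called by limma, 14 had an unadjusted p under 0.05, 10 lay below and 2 above every control heart, and the median was -0.35. Here heart 2 was the lowest of the mutants, with per-heart medians of -0.32, -0.50 and -0.08 against -0.19 to 0.21 in the controls. The Mrps12ep/ep hearts had medians of -0.37, 0.07 and -0.24. The median difference of Mrps12ha/ha from Mrps12ep/ep was -0.05, with 7 genes below and 1 above every Mrps12ep/ep heart. Atf3, a repressor of the ATF family that stress induces, was at 708, 741 and 919 against 214, 326 and 284 (-1.53, adjusted p = 0.0935 from limma). Csrnp1 was at 982, 1199 and 1392 against 265, 610 and 520 (-1.43, adjusted p = 0.159), and Errfi1, a feedback inhibitor of the EGF receptor, at 2657, 2713 and 3686 against 900, 1175 and 1655 (-1.31, adjusted p = 0.172). None of the 3 overlapped. Klf10, a TGF-beta-induced zinc finger factor, went the other way, at 624, 610 and 531 against 1022, 1160 and 1626 (1.08, adjusted p = 0.0943). For Atf3 and Klf10 the Mrps12ep/ep hearts also lay outside the controls on the same side, at 358 to 591 and 810 to 896.

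The integrated stress response, the programme that mitochondrial faults can switch on through ATF4, gave few shared differences. Of 29 genes tested, 0 were called by limma, 7 had an unadjusted p under 0.05, 4 lay above and 2 below the controls, and the median was -0.03, or 0.01 after each heart was re-centred. Ddit3, which encodes the transcription factor CHOP, was at 678, 652 and 648 in the controls and 1373, 963 and 1138 in the mutants (0.80, adjusted p = 0.144 from limma). Trib3, a pseudokinase that CHOP and ATF4 induce, was at 124, 103 and 98.7 against 243, 145 and 269 (0.96, adjusted p = 0.191), and Mthfd1l, a mitochondrial folate enzyme, at 16.4, 21.6 and 32.1 against 69.9, 66.4 and 74.0 (1.59, adjusted p = 0.144). All 3 were higher in every mutant heart. Atf4 itself was at 4123 to 4420 against 3902 to 5038. Thus Atf3 and Ddit3, both listed in this programme, lay in opposite directions in all 3 mutant hearts.

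Heat shock genes were lower in hearts 1 and 3, and 4 of them in all 3 mutant hearts. The per-heart medians over 25 genes were -0.76, -0.03 and -0.47 against -0.17 to 0.30 in the controls. Of the 25, 16 genes had hearts 1 and 3 below every control with heart 2 inside the control range, as had 12.5% of all genes tested. Hspa1b, the stress-induced HSP70, was at 3346, 959 and 817 in the controls and 221, 408 and 412 in the mutants (-2.04, adjusted p = 0.194 from limma). Hspa1a was at 3402, 988 and 866 against 245, 532 and 440 and Dnajb1, an HSP40 partner, at 1680, 1148 and 1036 against 674, 794 and 909. The controls were uneven in both HSP70 genes, with heart 1 far above the others, and yet no mutant heart reached them. The Mrps12ep/ep hearts held 1154 to 3328 for Hspa1b and 1237 to 2997 for Hspa1a. Over the list, 0 were called by limma, 8 had an unadjusted p under 0.05, 23 had a lower estimate, 4 lay below and 1 above every control heart, and the median was -0.43. Without heart 2, 10 were called lower and 0 higher. Hsf1, the factor that drives them, was the exception above the controls (1617 to 1709 against 1745 to 2292).

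Most nuclear OXPHOS subunit genes were slightly higher in all 3 mutant hearts. Of 37 complex I genes 24 lay above every control heart and 0 below, with a median of 0.30 and 33 higher estimates. Of 44 genes of complexes II to V 29 lay above and 0 below, with a median of 0.28. By limma 0 were called in either list, 13 and 15 had an unadjusted p under 0.05, and without heart 2 the calls were 13 higher for complex I and 13 higher and 4 lower for complexes II to V. Among them, Ndufa13 of complex I was at 13418, 13341 and 12830 against 24922, 16049 and 21080 (0.63, adjusted p = 0.203 from limma) and Atp5e, the epsilon subunit of ATP synthase, at 4815, 5548 and 4926 against 9279, 5886 and 9937 (0.68, adjusted p = 0.213). Heart 2 was above the controls but nearer to them than the other Mrps12ha/ha hearts, with a median over the complex I genes of 0.14 against 0.47 and 0.29. The Mrps12ep/ep hearts spread widely around the controls, with complex I medians of 0.20, -0.37 and -0.07. Only 5 of the 37 and 6 of the 44 genes lay above every Mrps12ep/ep heart, and 0 below.

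Subunits of the mitoribosome, the family of MRPS12, were less uniform. Of 33 small-subunit genes 11 lay above and 1 below every control heart (median 0.18), and of 50 large-subunit genes 13 above and 0 below (median 0.01). By limma 0 were called in both lists, with an unadjusted p under 0.05 in 6 and 5 genes. Mrps24 was at 1119, 1030 and 994 against 1533, 1211 and 1489 (0.42, adjusted p = 0.228 from limma) and Mrps21 at 2433, 2416 and 2253 against 3836, 2555 and 3476 (0.45, adjusted p = 0.228). Mrpl23 was at 167, 139 and 168 against 353, 217 and 420 (1.01, adjusted p = 0.213). All 3 were higher in each mutant heart, again least so in heart 2.

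The enzymes and factors that run mitochondrial translation were mostly lower in hearts 1 and 3. Their per-heart medians were -0.23, 0.04 and -0.36 against -0.06 to 0.10 in the controls. Of 51 tested, 37 had a lower estimate, 8 lay below and 0 above every control heart, 0 were called by limma, 12 had an unadjusted p under 0.05, and the median was -0.21. Gfm1, the elongation factor that moves the ribosome along the mRNA, was at 9297, 8221 and 8172 against 3702, 7964 and 3188 (-0.91, adjusted p = 0.213 from limma). Taco1, an activator of the translation of COX1, was at 1374, 1265 and 1308 against 364, 1314 and 414 (-1.17, adjusted p = 0.215). Hearts 1 and 3 were far below the controls in both genes, whereas heart 2 was just under the controls for Gfm1 and among them for Taco1. The elongation factor Tufm, the most abundant gene of the list, did not separate (7618 to 8581 against 6510 to 8994). Without heart 2, 23 of these genes were called lower and 2 higher.

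Several mitochondrial chaperone, protease and dynamics genes followed the same split, and others did not. Hspa9, the HSP70 of the matrix, was at 29564 to 32559 in the controls and 18002, 32348 and 17825 in the mutants, and Clpx, the unfoldase of a matrix protease, at 3819 to 4370 against 2597, 3857 and 2606. Opa1, which fuses and shapes the inner membrane, was at 6528 to 7366 against 2980, 7303 and 3088 (-0.77, adjusted p = 0.238 from limma). Mfn2, which fuses the outer membrane, was at 31118 to 31249 against 15634, 34151 and 20749. In these 4 genes hearts 1 and 3 were below the control range and heart 2 within or above it. Parl, a protease of the inner membrane, was above the controls in all 3 mutant hearts (1067 to 1157 against 1368 to 1589), as was Mief2 (1130 to 1169 against 1450 to 1568), whereas the protease Yme1l1 was below them (2738 to 2865 against 1914 to 2673). Over the 22 chaperones and proteases the per-heart medians were -0.48, 0.10 and -0.48, with 0 called by limma over all hearts, 7 at an unadjusted p under 0.05, and 1 called higher and 11 lower without heart 2. Of these 22 genes 9 had hearts 1 and 3 below every control with heart 2 inside the control range, as had 3 of the 20 dynamics and mitophagy genes. This pattern holds for 12.5% of all genes tested, and the dynamics list was near that share. In the latter list 2 genes lay above and 1 below every control heart, 0 were called by limma, and 4 had an unadjusted p under 0.05.

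Fuel metabolism held both kinds of pattern. The pyruvate dehydrogenase and TCA cycle genes had the lowest median of the metabolic lists, -0.43 over 33 genes, yet 1 lay above and 0 below every control heart. The per-heart medians were -0.65, 0.12 and -0.69, 0 were called by limma, and 4 had an unadjusted p under 0.05. Dlat, a core enzyme of pyruvate dehydrogenase, was at 15636, 14436 and 14126 against 6739, 16145 and 5593 (-0.80, adjusted p = 0.238 from limma), and Ogdh of the TCA cycle at 113878 to 121246 against 53505, 128082 and 67920. Without heart 2, 19 of the 33 were called, all lower. Branched-chain and other amino acid catabolism was alike, with a median of -0.37, 0 of 33 called by limma, 8 at an unadjusted p under 0.05, and 14 called lower and 1 higher without heart 2. Mut, the mitochondrial methylmalonyl-CoA mutase, was at 4056, 4452 and 4720 against 1589, 4358 and 1725 (-0.94, adjusted p = 0.213).

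Genes of fuel use lay in both directions. Of 45 genes of fatty acid uptake and oxidation 32 had a lower estimate, 6 (13.3%) lay above and 1 below every control heart, and the median was -0.28, with per-heart medians of -0.34, 0.14 and -0.39. Of 29 genes of glycolysis and glucose uptake 18 had a lower estimate, 3 lay above and 0 below, and the median was -0.11. By limma 0 were called in both lists, and 5 and 2 had an unadjusted p under 0.05. Angptl4, a PPAR target that inhibits lipoprotein lipase, was at 533, 305 and 635 in the controls and 1195, 1235 and 2095 in the mutants (1.63, adjusted p = 0.144 from limma). Ucp3, the uncoupling protein of muscle, was at 2727, 2602 and 1917 against 3510, 2924 and 5499 (0.68, adjusted p = 0.213). Hk2, the insulin-responsive hexokinase, was at 9752, 9433 and 9561 against 16712, 12823 and 16071 (0.66, adjusted p = 0.191). The mutants cleared the controls in each of the 3, most plainly in Angptl4 and Hk2. Txnip, a brake on glucose uptake, was at 20933, 14733 and 18545 against 23808, 35269 and 43708, and Mccc2, a subunit of leucine breakdown, at 2489, 2725 and 2729 against 4436, 4231 and 4465 (0.73, adjusted p = 0.163). Pdk4, the kinase that shuts off pyruvate dehydrogenase, overlapped at 30597 to 41501 against 14888 to 41055.

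Cholesterol synthesis genes and other targets of SREBP2 were mostly lower. Of 25 tested 0 were called by limma, 10 had an unadjusted p under 0.05, 8 lay below and 3 above every control heart, and the median was -0.34. Without heart 2, 9 were called lower and 1 higher. Idi1, an isoprenoid enzyme, was at 338, 291 and 351 against 156, 232 and 169 (-0.82, adjusted p = 0.191 from limma), and Acat2 at 192, 185 and 270 against 107, 115 and 127 (-0.87, adjusted p = 0.185). Every mutant heart was below the controls in both. Stard4, a cholesterol carrier, lay above, at 225, 219 and 185 against 346, 296 and 295 (0.57, adjusted p = 0.191).

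Calcium handling, which couples excitation to contraction, was lower in 2 of the 3 hearts. Ryr2, the calcium release channel of the sarcoplasmic reticulum, was at 47154, 51018 and 53594 in the controls and 16285, 44622 and 19113 in the mutants (-1.07, adjusted p = 0.210 from limma). Atp2a2, the calcium pump SERCA2, was at 402712, 447688 and 427212 against 172303, 445388 and 211652 (-0.75, adjusted p = 0.307). The exchanger Slc8a1 was at 11348 to 14690 against 5826, 15720 and 5869. Hearts 1 and 3 were far below the controls in all 3 genes, and heart 2 was near the controls, within them or above them. Without heart 2, the adjusted p was 0.00244 for Ryr2, 0.0246 for Atp2a2 and 0.0047 for Slc8a1 from limma. Jph1, which ties the surface membrane to the reticulum, was lower in all 3, at 872, 954 and 1081 against 377, 779 and 383 (-1.0, adjusted p = 0.191).

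Over the 41 calcium handling genes the median was -0.26, 0 were called by limma, 6 had an unadjusted p under 0.05, 5 lay above and 5 below every control heart, and 12 had hearts 1 and 3 below all controls with heart 2 inside the control range. That last pattern holds for 12.5% of all genes tested. Without heart 2, 16 were called lower and 3 higher. Pcp4, a calmodulin regulator found in the conduction system, was at 13.8, 2.60 and 10.1 against 82.8, 57.4 and 56.0 (2.96, adjusted p = 0.191 from limma), a range of few reads in the controls. Smdt1, a regulator of the mitochondrial calcium uniporter, was at 2675, 2574 and 2396 against 4081, 2887 and 4032 (0.51, adjusted p = 0.210).

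Genes of hypertrophy and of the fetal programme, which stressed hearts switch back on, lay in both directions, more of them lower. Acta1, skeletal actin, was at 37619, 20542 and 6961 in the controls and 3282, 2978 and 3004 in the mutants (-2.51, adjusted p = 0.153 from limma). Ankrd1, a stretch-induced titin partner, was at 72529, 43435 and 38810 against 18604, 27933 and 19850 (-1.19, adjusted p = 0.185). The 3 mutant values of Acta1 were nearly equal whereas the controls differed several-fold among themselves. Myh7, the fetal myosin, overlapped at 7614 to 22338 against 7146 to 18010, and Nppb, the B-type natriuretic peptide, at 1275 to 7885 against 954 to 3582. Uchl1, a ubiquitin hydrolase gene, lay above the controls in all 3 mutants, at 319, 266 and 284 against 429, 393 and 481 (0.58, adjusted p = 0.195). The per-heart medians of the list were -0.72, -0.08 and -0.60 against -0.05 to 0.08 in the controls. Of 32 genes tested 0 were called by limma, 12 had an unadjusted p under 0.05, 7 lay below and 3 above every control heart, and the median was -0.54. Without heart 2 the median was -0.60, with 12 called lower and 1 higher.

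Nppa, the atrial natriuretic peptide, belongs to the same programme and is also an atrial marker. It was at 7983, 78294 and 54983 in the controls and 4582, 4180 and 3884 in the mutants (-2.95, adjusted p = 0.289 from limma). Control heart 1 had the least Nppa of the controls and the lowest sum of the 8 atrial genes. Nppa is itself among those 8, so that the sum and Nppa are not independent. All 8 atrial genes had lower estimates (median -2.93) with 2 of them below every control heart, and the part of atrial tissue in Nppa was not tested. Slc38a1, a glutamine transporter gene, moved alongside, at 276, 827 and 592 against 140, 154 and 199 (-1.65, adjusted p = 0.211).

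Sarcomere genes were a mixture. Obsl1, an adaptor at the M-band, was at 3855, 4340 and 4316 against 7067, 5826 and 7056 (0.67, adjusted p = 0.144 from limma), and Tcap, the titin cap, at 35394, 48231 and 43357 against 77076, 47989 and 83351. Lmod2, which lengthens thin filaments, was at 22830 to 28999 against 11707, 24097 and 8541 (-0.96, adjusted p = 0.215). Obsl1 separated in all hearts, the others in hearts 1 and 3 only. Of 34 genes 7 lay above and 2 below every control heart, 0 were called by limma and 10 had an unadjusted p under 0.05. Without heart 2, 3 were called higher and 13 lower, against 12.2% and 14.8% of all genes. Myh6, the main adult myosin, was at 1031675 to 1248721 against 2130354, 1185571 and 1846145.

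Ion channel and receptor genes lay in both directions. The potassium channel gene Kcnq1 was at 1429, 1838 and 1497 against 790, 1422 and 1111 (-0.55, adjusted p = 0.221 from limma), and Kcnj11, the pore of the ATP-sensitive potassium channel, at 6216 to 7128 against 3304, 6481 and 4385. Pde4b, which degrades cAMP, was at 1261, 1716 and 1476 against 950, 1132 and 912 (-0.57, adjusted p = 0.193). Chrm2, the muscarinic receptor, was at 3217 to 5974 against 1403, 4011 and 1546. Pde4b and Kcnq1 were lower in each mutant heart, and Chrm2 and Kcnj11 in hearts 1 and 3 with heart 2 inside the control range. Of 58 channel and gap junction genes 4 (6.9%) lay below and 5 (8.62%) above every control heart, against 10.0% and 11.1% of all genes, 0 were called by limma and 13 had an unadjusted p under 0.05. Of 38 genes of adrenergic and other receptors and their signalling 3 lay above and 2 below, 0 were called and 10 had an unadjusted p under 0.05. Adcy6, an adenylyl cyclase gene, was among those above, at 8959, 10356 and 11854 against 15135, 12941 and 13044 (0.41, adjusted p = 0.213).

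Of 81 cytosolic ribosomal protein genes tested 80 had a higher estimate, 44 lay above every control heart and 1 below, 51 had an unadjusted p under 0.05, 0 were called by limma, and the median was 0.39. Rpl14 was at 4561, 4951 and 4839 in the controls and 7862, 5877 and 7819 in the mutants (0.57, adjusted p = 0.185 from limma), and Rps2 at 22243, 20681 and 19819 against 27466, 25414 and 28652 (0.38, adjusted p = 0.221). The per-heart medians were 0.48, 0.08 and 0.57 against -0.04 to 0.05 in the controls, so that heart 2 was higher by little. Without heart 2, 63 of the 81 were called higher and 1 lower. Copies of these genes are common in the genome, and reads may be shared among them.

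Ribosomal and OXPHOS subunit genes have short transcripts, and transcript length moved with the same hearts. Among protein-coding genes with a mean of at least 100 normalised counts, those with the shortest exonic length (2282 genes of 243 to 2661 bases) had a median difference from the control mean of 0.083, 0.051 and 0.105 in Mrps12ha/ha hearts 1, 2 and 3. The longest (2282 genes of 7958 to 123179 bases) had -0.152, -0.019 and -0.143. Over all 5 length classes of this kind the medians of the controls lay between -0.019 and 0.022. Their part in the results for short and long genes was not tested.

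Endothelial genes were higher in hearts 1 and 3, while heart 2 lay within the range of the controls. Of 48 tested 0 were called by limma, 22 had an unadjusted p under 0.05, 13 lay above and 0 below every control heart, and the median was 0.43. Sox7 was at 1050, 891 and 649 against 2327, 1471 and 2225 (1.22, adjusted p = 0.144 from limma), and Egfl7, an angiogenic factor that vessels secrete, at 3294, 3121 and 2912 against 9820, 4264 and 7919 (1.16, adjusted p = 0.191). Aplnr, the apelin receptor, was at 922, 535 and 242 against 2686, 1522 and 1256 (1.81, adjusted p = 0.191). These 3 genes separated from the controls in all hearts. The Mrps12ep/ep hearts had 1613, 1119 and 1322 for Sox7, 5240, 3215 and 3610 for Egfl7 and 1494, 911 and 1337 for Aplnr. Their medians over the list were 0.27, 0.14 and 0.09. Of the 48 genes 2 lay above and 0 below every Mrps12ep/ep heart, against 8.77% and 7.82% of all genes. Over the list the per-heart medians were 0.72, 0.03 and 0.56 against -0.07 to 0.13 in the controls, and 30 genes were called higher and 1 lower without heart 2. The lists of fibroblasts (median -0.06 over 20 genes), smooth muscle and pericytes (-0.08 over 17) and macrophages (0.08 over 28) had 0 called by limma, 0, 4 and 1 genes at an unadjusted p under 0.05, and 0, 2 and 1 genes above and 2, 1 and 1 below every control heart.

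**Figure D5:**
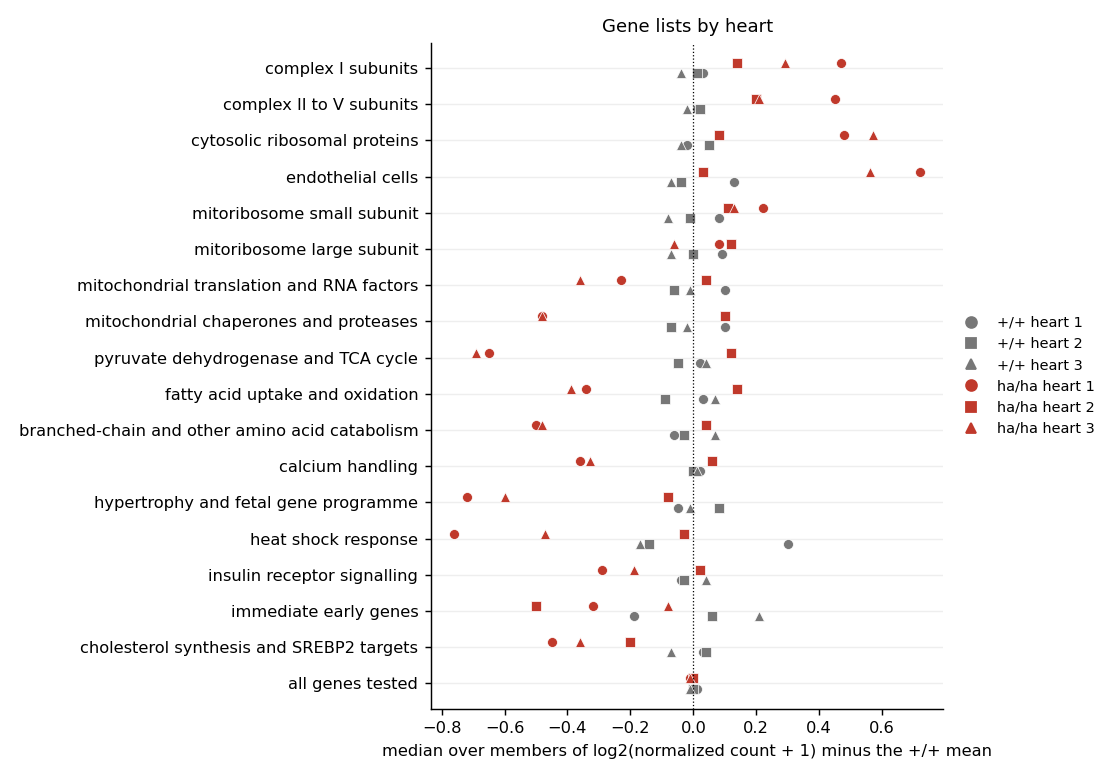
Median over the members of each gene list of the difference from the control mean, in log2(normalised count + 1), 1 point per heart, with all 16057 genes in the last row. Mrps12ha/ha heart 2 (red squares) lies on the side of hearts 1 and 3 for the OXPHOS subunits, immediate early genes and cholesterol synthesis, and near the controls for the TCA cycle, chaperones and calcium handling.

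The hyper-accurate hearts were also tested directly against the error-prone ones, since both alleles change neighbouring residues and the diet was the same. In that comparison 4 genes (0.0249%) were called, 3 lower and 1 higher in Mrps12ha/ha hearts (0.0187% and 0.00623%), while 2879 (17.9%) passed 0.05 before adjustment. The 3 lower were Gm15387, Ptges3-ps and Gm6206, and the higher one was AL731706.2, with 12.9, 33.2 and 27 normalised counts against 0 in every Mrps12ep/ep heart and 25.8 to 32 in the controls. The mutant groups did not overlap in 1409 genes (8.77%) that were higher and 1256 (7.82%) that were lower. Without Mrps12ha/ha heart 2, 3730 genes were called, 1663 higher (10.4%) and 2067 lower (12.9%).

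The 2 comparisons use the same 3 Mrps12ha/ha hearts. For Zc3h13 the estimates were 1.07 against the controls and 1.06 against Mrps12ep/ep (adjusted p = 0.0715 from limma), for Angptl4 1.63 and 1.55 (0.179), for Dbp 1.09 and 1.0 (0.204) and for Ankrd1 -1.19 and -1.19 (0.227). Sik1 (-1.46 and -0.91) and Rrad (1.39 and 0.74) had Mrps12ep/ep hearts at levels between the other genotypes, at 2640 to 3547 and 2418 to 2973. None of these 6 passed 0.05 in the direct test.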

How the data were processed

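Total RNA of whole hearts was sequenced, 3 technical libraries for each of 3 mice per genotype. According to the submitters' processing notes, reads were trimmed (Trim Galore 0.4.1, cutadapt 1.18), quantified with Salmon 1.1.0 on GRCm38.p6 transcripts and normalised with DESeq2. The deposited values are normalised counts per gene, named a score here because the authors scaled them. The authors' own comparison tables (mean, fold change, standard error, p) were not used. All values up to 1000 steps were whole multiples of 1 read within 0.1 read, which gave each heart's depth. Transcripts of the mitochondrial chromosome are not among the 54356 genes, and 16057 with a mean of at least 10 over 9 hearts were tested.

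Log2(normalised count + 1) was fitted with limma 3.58.1 in R 4.3.3 (empirical Bayes with a trend) over all 9 hearts, with Benjamini-Hochberg adjustment and a threshold of 0.05. The fitting was tested on simulated data with the same spread for all genes and hearts, and so without a heart that deviates as Mrps12ha/ha heart 2 does. Limma's p-values set each difference against a spread estimated from all 9 hearts. Depth differed between hearts, so that low genes were least precise in Mrps12ha/ha heart 2. Copies of pseudogenes were matched with BLAST (at least 99% identity over at least 95% of the pseudogene) in GENCODE vM21 transcripts. Promoters came from RefSeq.

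The comparison, the 58 gene lists and the rule for named genes were chosen with earlier results of these data known. Named were Mrps12, called genes, the 12 with the smallest p and the 8 with the largest fold in each direction among non-overlapping genes with a mean of at least 100, up to 4 members of each list with the smallest p and its most abundant member, and genes that the study names. Hmgb1, Cop1, Ube2v2, Ptges3, Nr1d2, Npas2, Clock, Tef, Per1, Insr, Irs1, Slc8a1, Errfi1, Myh7, Nppb, Hsf1 and AL731706.2 were chosen after their values were seen. Alternatives changed the pseudocount, filter, scaling, weights, depth, block and hearts.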

Additional observations from a re-analysis of the deposited data

How the results depend on the processing

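The 5 calls against the controls came to 4 to 7 under the other pseudocounts, low-value filters, quantile normalisation, re-centring, robust variance, thinning and a fit of the 2 genotypes alone. Weighting the hearts gave 5573 calls (2590 higher). Limma-voom on reads recovered from the values gave 3, losing Irs2 and Gm6206, and the replicate number as a block gave 3, losing Irs2 and Gm6361. Leaving out single hearts gave 3 (without control heart 1) to 4330 (without Mrps12ha/ha heart 2), and Irs2 passed 0.05 only in the latter. Against Mrps12ep/ep the 4 calls became 6314 with weights and 3 to 3730 when single hearts were left out, the highest again without Mrps12ha/ha heart 2. The block rests on numbers that did not pair the hearts, since deviations of same-numbered control and Mrps12ha/ha hearts correlated at -0.002, -0.127 and 0.096. It left 4 calls against Mrps12ep/ep. The shallowest heart, with 1 read worth 3.02 normalised counts, limits the low genes. The planned edgeR and DESeq2 fits were not run. Small differences of genes whose groups overlapped changed sign with single choices. Quantile normalisation put Myh6 at -0.0. Leaving out single hearts moved Tufm between -0.15 and 0.08, Atf4 between -0.07 and 0.11, Ube2v2 between -0.27 and 0.03, Ptges3 between -0.16 and 0.01, Myh7 between -0.28 and 0.50 and Nppb between -1.13 and 0.19. Of 35 list medians 6 changed sign under at least 1 alternative, those of the core clock (-0.10 to 0.02), fibroblasts (-0.15 to 0.06), macrophages (-0.06 to 0.25), smooth muscle and pericytes (-0.08 to 0.14), the integrated stress response (-0.08 to 0.01) and the large mitoribosomal subunit (-0.02 to 0.08).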

Other observations

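Genes of red blood cells had higher estimates in the Mrps12ha/ha hearts, unequally between mice. The beta globin gene Hbb-bs was at 46620, 37174 and 93957 normalised counts in the control hearts and at 195947, 81256 and 631699 in the mutants. Alas2, the first enzyme of haem synthesis in red cells, was at 1348, 1130 and 2326 against 4860, 2356 and 17128 (log2 fold change 1.93, adjusted p = 0.211 from limma). All 9 erythroid genes had higher estimates, 3 lay above every control heart, 0 were called by limma and 7 had an unadjusted p under 0.05. Lymphocyte and neutrophil genes were less uniform. Of 19 tested 13 had a higher and 6 a lower estimate, 3 lay above and 0 below every control heart, and 0 were called by limma. Their per-heart medians were 0.58, -0.24 and 0.95 against -0.23 to 0.27 in the controls. The B cell gene Cd79a (31.9, 38.1 and 10.1 against 53.4, 42.3 and 91.3) was among those above, at few reads.

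Interferon-stimulated genes were higher in Mrps12ha/ha hearts 1 and 3, while heart 2 lay below control heart 1. Their median over 44 genes was 0.47 for Mrps12ha/ha and 0.46 for Mrps12ep/ep against the same control hearts, with per-heart medians of 0.68, 0.12 and 0.52 in the hyper-accurate and 0.63, 0.37 and 0.39 in the error-prone hearts. Gbp3, a guanylate-binding protein gene, was at 536, 350 and 345 in the controls and at 749, 550 and 681 in Mrps12ha/ha hearts (0.70, adjusted p = 0.198 from limma). Control heart 1 stood above the other controls, with a median of 0.32 over the list. Of the 44, 8 lay above and 1 below every control heart, 0 were called by limma and 18 had an unadjusted p under 0.05.

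Genes of the heart's surface were low in the mutants, and several genes of fat were high in 1 control heart. Of 9 mesothelial genes 8 lay below every control heart, among them Upk3b with 158, 716 and 406 in the controls and 23.9, 60.4 and 0.7 in the mutants, and Msln with 102, 346 and 210 against 44.2, 18.1 and 32.5. By limma 0 of the 9 were called and 7 had an unadjusted p under 0.05. Adipoq, an adipocyte hormone, was at 16.4, 94.3 and 1276 against 7.4, 12.1 and 6.9, so that control heart 3 held most of it. Ucp1, a gene of brown fat, was at 8557 in the same heart and at 0 to 25.1 in the other controls and the mutants. Of 9 white adipocyte genes 3 had a higher and 6 a lower estimate, 3 lay below and 0 above every control heart, and the sums were 27143, 25610 and 45503 against 45281, 24578 and 43089. Most of each sum was Fabp4, which is also in the endothelial list, at 23317, 21342 and 28317 against 40780, 20422 and 37400. The median over the list was -3.37. Of 9 brown adipocyte genes 2 lay above and 1 below. By limma 0 were called in both lists, and 3 and 1 had an unadjusted p under 0.05.

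Conduction system genes lay in both directions. Of 14 tested 6 had a higher and 8 a lower estimate, and the median was -0.16, with per-heart medians of -0.10, 0.14 and -0.05. Of these genes 3 lay above and 1 below every control heart, 0 were called by limma and 4 had an unadjusted p under 0.05. Cntn2, a cell adhesion gene of Purkinje fibres, was at 144, 30.3 and 143 against 571, 809 and 897 (3.11, adjusted p = 0.220 from limma), and Tbx3, a factor of the pacemaker, at 705, 636 and 537 against 1268, 870 and 1954 (1.05, adjusted p = 0.191). In the Mrps12ep/ep hearts Cntn2 ran from 19.8 to 712, which spans the controls and a mutant heart.

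Genes of atrophy, a programme that FoxO factors drive when insulin signalling is low, were lower in hearts 1 and 3. The per-heart medians were -0.58, -0.07 and -0.27 against -0.12 to 0.15 in the controls. Of 32 FoxO and atrophy targets 27 had a lower estimate, 7 lay below and 1 above every control heart, 0 were called by limma, 9 had an unadjusted p under 0.05, and the median was -0.31. Bcl6, a repressor that FoxO induces, was at 1534, 1489 and 1858 against 650, 951 and 1161 (-0.85, adjusted p = 0.191 from limma), and Txnip was the gene above, at 20933, 14733 and 18545 against 23808, 35269 and 43708. Irs2 itself is a FoxO target and is counted among the insulin genes only.

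The small cytoplasmic RNA gene Rn7s1 was at 85.3, 45.9 and 62.3 in the controls and at 2196, 362 and 103 in the mutants. Its spread within Mrps12ha/ha was wider than its distance from the controls in heart 3.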
